A study of Homo sapiens with 6 samples.

Results

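TP63 and 3 genes tied to it in epithelial biology, TP73, PERP and SFN, were followed in PC-3 prostate carcinoma cells treated with S-adenosylmethionine (SAM). The 4 genes were taken by symbol from the 57396 genes of the count table, and they were chosen by their known roles with their fold changes between SAM and control in view, so that contrast is described here without a test. TP63 stood at 55.7 ± 3.05 CPM (scaled counts relative to the library total; SD, n = 3) in the control libraries and at 27.6 ± 7.56 CPM (SD, n = 3) in the SAM libraries. SFN moved the other way, from 152 ± 3.54 to 225 ± 27.0 CPM. TP73 and PERP differed little between the groups, with log2 fold changes of −0.26 and −0.10.

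TP63 encodes p63, a transcription factor of the p53 family that marks the basal layer of stratified and glandular epithelia, including the basal cells of the prostate. The gene has an upstream promoter, which gives the TA forms, and an internal promoter, which gives the N-terminally shortened ΔN forms that predominate in basal cells. TP73 encodes the related factor p73. PERP is a tetraspan membrane protein of desmosomes and a known p63 target, and SFN encodes 14-3-3 sigma, an epithelial member of the 14-3-3 family that holds back cyclin-dependent kinase complexes at the G2 to M transition.

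The libraries came from PC-3, an established line from a bone metastasis of prostate cancer. SAM is the methyl donor of cellular methylation reactions. Cells were given 160 µM SAM or, as control, PBS (also called vehicle in the labels) for 5 days, and RNA was sequenced from 3 libraries per group. The labels do not say that the libraries came from separate cultures, so each error and p-value below measures the spread between libraries, which may be technical.

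The libraries held 9379258 to 28995160 counts, a 3.09-fold range. The lowest count of each gene in any library was high enough to give a counting error (SD) of 15.8% for TP73, 5.33% for TP63, 2.69% for SFN and 1.71% for PERP. Control 1 and SAM 2 stood apart from the other libraries in the share of counts on the transcript CTD-2328D6.1, at 1.18% and 1.56% against 0.0324% to 0.0636% elsewhere. SAM 3 stood apart in base composition, with its level rising by 0.124 log2 units per 10 percentage points of GC content, against −0.061 to −0.001 in the other libraries. Per doubling of transcript length, levels changed by 0.068, 0.008 and 0.054 log2 units in control 1 to 3. In SAM 1 to 3 the change per doubling was −0.05, 0.033 and −0.114.

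The starts of TP63 and SFN are shown because these are the genes with the larger differences and because SAM supplies the methyl group of CpG methylation. No DNA methylation was measured in these libraries. Each window runs from 250 bases before to 50 bases after an annotated start, 5′ to 3′ on the plus strand, with CpG dinucleotides in capitals. The upstream TP63 window (chr3:189631139-189631438) and the SFN window (chr1:26862899-26863198) come from RefSeq on GRCh38.p14, and the internal TP63 window (chr3:189789409-189789708) was read from the GRCh38 genome at the GENCODE v44 start.
TP63 upstream start: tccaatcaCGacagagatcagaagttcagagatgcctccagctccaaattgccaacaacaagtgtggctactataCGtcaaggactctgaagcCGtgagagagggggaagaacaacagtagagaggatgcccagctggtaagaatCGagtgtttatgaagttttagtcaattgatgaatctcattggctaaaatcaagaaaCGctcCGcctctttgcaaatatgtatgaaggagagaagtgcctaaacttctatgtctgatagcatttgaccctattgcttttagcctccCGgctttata
TP63 internal start: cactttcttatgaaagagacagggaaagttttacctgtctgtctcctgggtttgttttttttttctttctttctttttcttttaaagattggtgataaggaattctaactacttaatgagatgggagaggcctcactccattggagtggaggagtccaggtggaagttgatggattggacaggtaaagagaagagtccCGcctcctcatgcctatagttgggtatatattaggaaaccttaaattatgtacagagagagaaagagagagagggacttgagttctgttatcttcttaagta
SFN start: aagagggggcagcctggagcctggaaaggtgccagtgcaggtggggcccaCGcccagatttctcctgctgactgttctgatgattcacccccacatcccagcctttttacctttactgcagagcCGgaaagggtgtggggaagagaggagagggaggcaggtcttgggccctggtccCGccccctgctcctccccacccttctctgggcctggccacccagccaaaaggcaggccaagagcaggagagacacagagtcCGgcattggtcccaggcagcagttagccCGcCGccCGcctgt

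The upstream TP63 window and the SFN window each held 7 CpG dinucleotides, fewer than the median of 14 over 35116 promoter windows of the same length. For both, 36.8% of all windows held fewer. The internal TP63 window held 1 CpG, and 4.0% of all windows held fewer. The windows of PERP and the first TP73 start held 43 and 49 CpG, and 95% and 98.4% of windows respectively held fewer. The 2 further TP73 windows held 15 and 11 CpG. None of the 7 windows held the p53-family half-site consensus on either strand, which 6.6% of all windows held, and this says only that those letters are not in these windows.

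**Figure D1:**
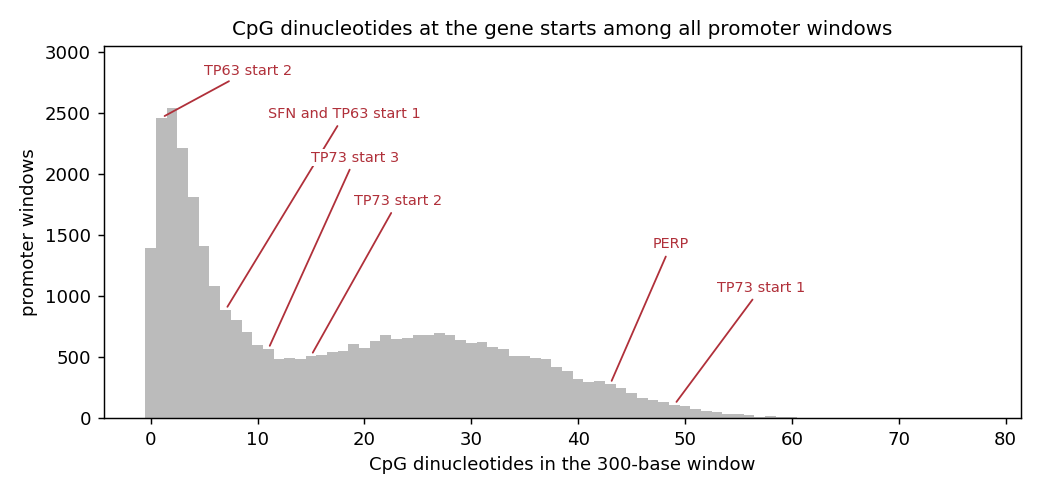
Number of promoter windows (vertical axis) by the number of CpG dinucleotides in the 300-base window (horizontal axis), for 35116 RefSeq windows (grey bars), with the windows of TP63, SFN, TP73 and PERP marked by lines. The TP63 and SFN starts lie at 1 to 7 CpG, and the PERP start and the first TP73 start lie at 43 and 49.

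The TP63 gene (ENSG00000073282) spans 265.9 kb of the plus strand of chromosome 3, from 189631416 to 189897279 in the deposited table. GENCODE v44 lists 12 coding transcripts, 5 starting at the upstream promoter and 7 at the internal one 158.3 kb downstream. Counts were made per gene, so TA and ΔN transcripts cannot be told apart here. TP73 (ENSG00000078900) lies on chromosome 1 from 3652520 to 3736201 and has 4 clusters of coding starts. PERP (ENSG00000112378; chromosome 6, 138088505 to 138107511, minus strand) and SFN (ENSG00000175793; chromosome 1, 26863138 to 26864457, plus strand) each have 1 transcript, with 3 exons and 1 exon.

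TP63 was read at 58.9, 52.8 and 55.4 CPM in control 1 to 3 and at 23.3, 36.4 and 23.2 CPM in SAM 1 to 3. The groups did not overlap. SAM 2 was the highest of the treated libraries and the only one of them whose levels rose with transcript length. The log2 fold change was −1.02 (SE 0.16), a level 0.492 times that of the controls. Bulk counts cannot tell apart fewer cells making TP63 RNA from less TP63 RNA per cell. Without both control 1 and SAM 2, the libraries that stood apart, the log2 fold change was −1.21.

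SFN was read at 148, 154 and 154 CPM in the controls and at 225, 198 and 252 CPM with SAM, again without overlap. Its log2 fold change was 0.57 (SE 0.11), a level 1.48 times that of the controls. SFN is a short, GC-rich gene (62.77% GC in its transcript), and its highest library was SAM 3, the one whose levels rose with GC. With the trends on GC content and transcript length removed, the log2 fold change of SFN was 0.41 and that of TP63 was −0.94.

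PERP was read at 367, 387 and 375 CPM in the controls and at 356, 338 and 359 CPM with SAM. Every treated library lay below every control library, by a small margin. The group means were 376 ± 9.90 and 351 ± 11.2 CPM, a log2 fold change of −0.10 (SE 0.08), and −0.01 with the GC and length trends removed.

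TP73 had the fewest counts of the 4 genes, 40 to 107 per library, and was read at 4.40, 4.86 and 3.97 CPM in the controls and 3.10, 3.38 and 4.69 CPM with SAM. The groups overlapped, and SAM 3 lay above 2 of the 3 controls. The log2 fold change was −0.26 (SE 0.20). The antisense gene TP73-AS1 shares 633 exonic bases with TP73, 9.35% of the exonic length of TP73, and was counted at 54.9 to 63.2 CPM. No source used here says whether strand was used in counting, so reads on the shared bases may belong to either gene. TP73-AS1 and WRAP73, the other neighbour whose span overlaps TP73, had log2 fold changes of 0.03 and 0.04 and did not pass the test.

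**Figure D2:**
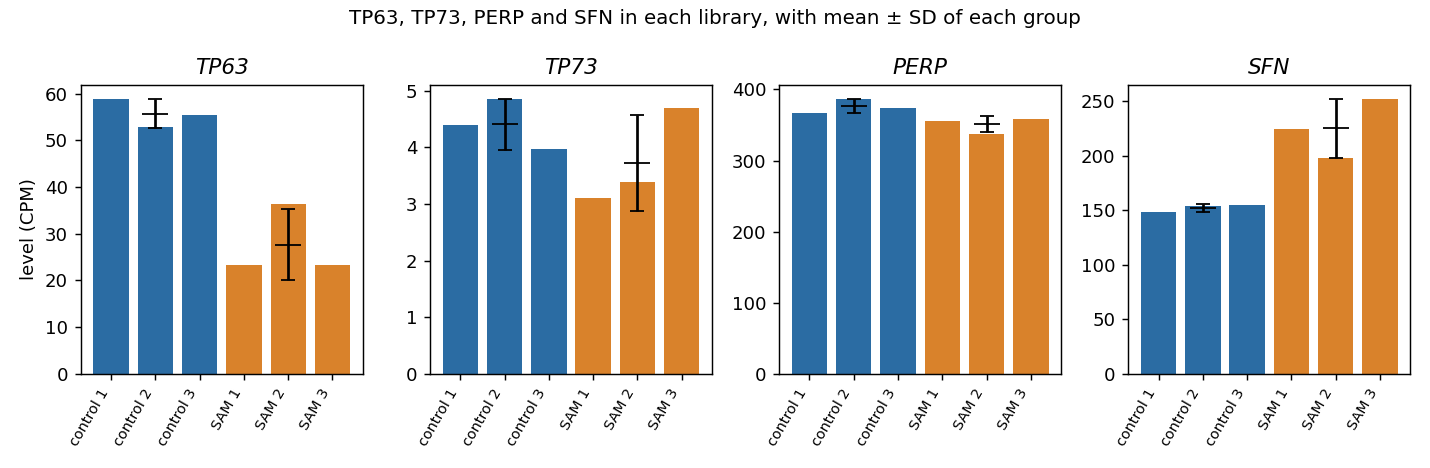
Level in CPM (vertical axes, each from 0) of TP63, TP73, PERP and SFN in each control library (blue) and SAM library (orange), with the mean and SD of each group of 3 in black. TP63 is below every control library in all SAM libraries, SFN is above, PERP is slightly below, and the TP73 groups overlap.

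The groups did not overlap for 3 of the 4 genes, TP63, PERP and SFN, beside 36.7% of the 15312 genes tested. The 4 genes were chosen with this comparison known, so nothing is read from that count and no test of them is given. For the gene lists below, a gene is called when its adjusted p is under 0.05 by edgeR's quasi-likelihood test over all genes. Over those genes 10.4% were called, 5.24% lower and 5.19% higher, 7517 had a positive log2 fold change and 7795 a negative one.

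Ratios of counts between the genes inside a library do not depend on scaling between libraries, and they are not per length. TP63 was counted 39.8, 34.3 and 35.9 times per 100 SFN counts in the controls and 10.4, 18.3 and 9.21 times with SAM. TP63 per 100 PERP counts was 16.0, 13.6 and 14.8 in the controls and 6.56, 10.8 and 6.48 with SAM. SFN per 100 PERP counts was 40.3, 39.8 and 41.2 in the controls and 63.3, 58.6 and 70.3 with SAM. None of these 3 ratios overlapped between the groups. TP63 per TP73 count was 13.4, 10.9 and 14 in the controls and 7.52, 10.8 and 4.96 with SAM, where SAM 2 nearly reached control 2.

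Across the 6 libraries TP63 and SFN had a Pearson r of −0.98 on log2 levels, TP63 and PERP 0.57, and TP63 and TP73 0.40. These are descriptions over 6 libraries that share the treatment contrast.

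To place TP63 and TP73 beside each other, CPM was divided by the merged exon length in kb. On this scale TP63 stood at 7.45 ± 0.408 CPM per kb in the controls and at 3.70 ± 1.01 with SAM, against 0.651 ± 0.0660 and 0.550 ± 0.125 for TP73. TP63 thus stood at 11.4 times TP73 in the controls and at 6.72 times with SAM. The lowest SAM library of TP63 lay above the highest of TP73.

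**Figure D3:**
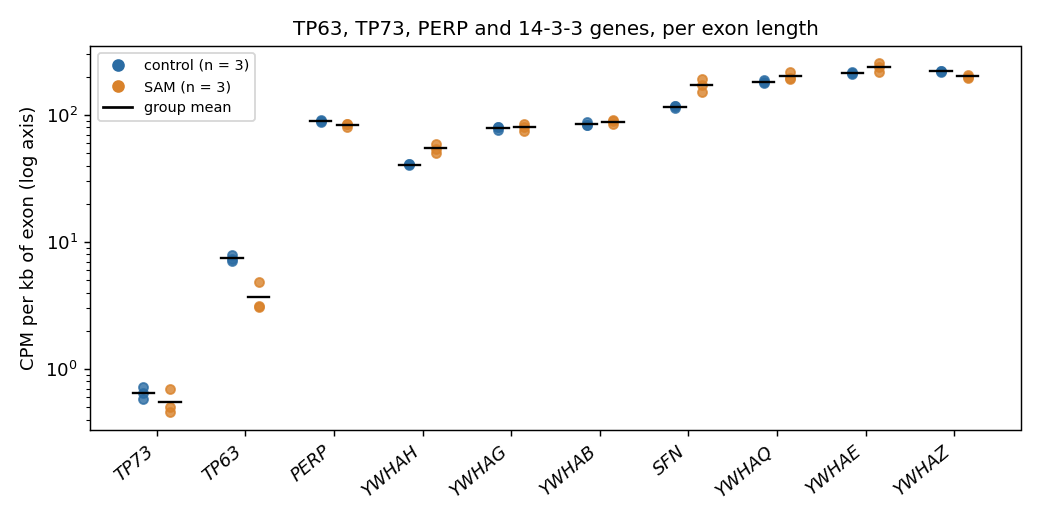
Level per merged exon length (CPM per kb, log axis) of TP63, TP73, PERP and the 14-3-3 genes in each control (blue) and SAM (orange) library, with group means as black bars. TP63 lies above TP73 in both groups, and SFN lies between YWHAB and YWHAQ.

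The basal label was checked against marker genes. Of the basal markers, the integrin genes ITGA6 and ITGB4, the laminin chain LAMB3, P-cadherin (CDH3) and keratin 15 (KRT15) were all well above the detection limit. The keratins that define prostate basal cells were not: KRT5 stood at 0.215 to 0.363 CPM in the controls and 0.528 to 0.846 with SAM, and KRT14 at 0 to 0.172 CPM in all 6 libraries. The luminal keratins were abundant, KRT8 at 842 to 927 CPM and KRT18 at 1009 to 1105 CPM in the controls, while KLK2 and KLK3, secreted proteases of luminal cells, were at 0 throughout. The cells therefore carried TP63 RNA with luminal keratins and, of these basal keratins, KRT15, and the basal name is used only for what these genes are known for.

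A list of 24 genes linked to p63 or the basal layer was set beside TP63, and 20 were expressed enough to test. With SAM, 4 fell, 2 rose and 14 did not pass, beside 5.24% lower and 5.19% higher over all genes. Their median log2 fold change was −0.24, against −0.01 over all genes tested, and it was −0.31 without SAM 2 and −0.08 without SAM 3. ITGB4, which with ITGA6 forms the hemidesmosome integrin, fell from 4064, 3638 and 3770 CPM to 1604, 2318 and 2479 CPM, a log2 fold change of −0.84 (SE 0.15; adjusted p = 0.0105 by edgeR). CDH3 fell by 0.34 on the log2 scale (adjusted p = 0.0465 by edgeR).

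LAMB3, the beta chain of laminin-332 to which that integrin binds, rose instead, from 735, 712 and 796 CPM to 1060, 1052 and 961 CPM (log2 fold change 0.45, SE 0.09; adjusted p = 0.0170 by edgeR). The Notch ligand JAG2 rose by 0.31 on the log2 scale (adjusted p = 0.0469). CDH3 and JAG2 are named to complete the counts and were picked with their values in view. LAMA3, the alpha chain of laminin-332, did not pass, with a log2 fold change of −0.19, and neither did ITGA6 at −0.22 or KRT15 at −0.30.

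MIR205HG, the host transcript of miR-205, a microRNA abundant in basal epithelium, fell from 98.04, 97.9 and 106 CPM to 54.8, 65.1 and 79.6 CPM. The log2 fold change was −0.60 (SE 0.13; adjusted p = 0.0244 by edgeR). The mature microRNA was not measured by these libraries. Its sequence is shown for the product the host transcript carries, with the seed (bases 2 to 8) in capitals, from RefSeq on GRCh38.p14 (chr1:209432166-209432187, plus strand).
hsa-miR-205-5p: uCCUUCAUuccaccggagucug

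The counts on the p63-linked list moved when 1 library was left out, and so did those over all genes. Without control 1, 2 or 3 the falls numbered 0, 1 and 0, without SAM 1 there was 1, and without SAM 2 or SAM 3 there were 7 and 6. The rises numbered 0 without any 1 of the controls or SAM 1, 4 without SAM 2 and 3 without SAM 3. Over all genes the 803 falls became 141, 114 and 78 without control 1, 2 or 3, and 108 without SAM 1. They became 1572 and 1246 without SAM 2 or SAM 3. In the same order the 795 rises over all genes became 114, 108, 61 and 107, then 1661 and 1253. These same runs underlie the left-out libraries of the lists below. The ITGB4 call was lost without control 1 or control 3, and those of LAMB3, MIR205HG, CDH3 and JAG2 without any 1 control or without SAM 1. ITGB4, LAMB3 and MIR205HG kept their direction in every alternative run.

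**Figure D4:**
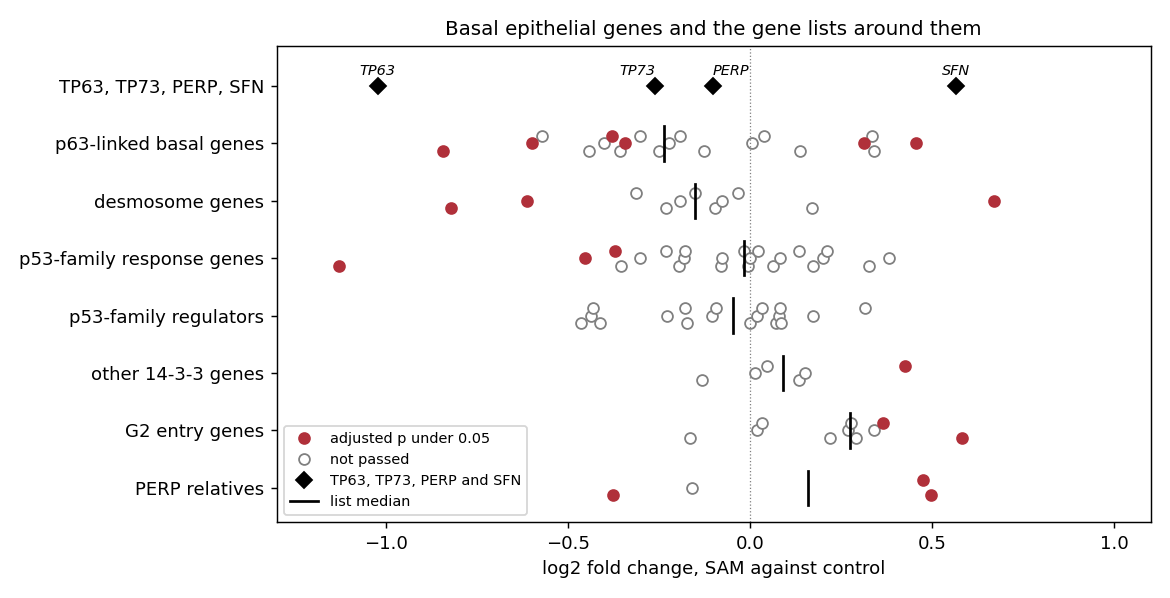
Log2 fold change of SAM against control (horizontal axis) for TP63, TP73, PERP and SFN (black diamonds) and for each tested gene of 7 lists (circles, filled red at an adjusted p under 0.05), with list medians as black bars. Most lists spread to both sides of 0, and 9 of the 10 G2 entry genes lie above it.

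p63 and p73 share response elements within their family, so 26 genes of the p53 response were examined, 23 of which could be tested. With SAM 3 fell and 0 rose by edgeR, beside 5.24% lower and 5.19% higher over all genes. At an unadjusted p under 0.05, 6 were lower and 3 higher. The share of all genes at that looser threshold is not given here, so nothing is read from those counts. DESeq2 and limma voom each called 0 higher. The median log2 fold change was −0.02, and −0.07 to −0.02 with 1 library left out. TP53INP1, a stress protein of the p53-family response, fell from 22.6, 21.6 and 19.9 CPM to 9.16, 10.5 and 9.71 CPM, a log2 fold change of −1.13 (SE 0.12; adjusted p = 0.0013 by edgeR).

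TP53INP1 kept its call without any 1 library, with an adjusted p of at most 0.0160. The kinase PLK2 and the ribonucleotide reductase subunit RRM2B fell by 0.37 and 0.45 on the log2 scale (adjusted p = 0.0287 and 0.0473 by edgeR), and both calls were lost without any 1 control or SAM 1, leaving 1 fall on the list. Without SAM 2 or SAM 3, 2 genes rose. The best known targets of the family did not pass. CDKN1A, the cell cycle inhibitor p21, was read at 76.1, 79.2 and 86.9 CPM against 77.3, 73.4 and 79.0 CPM (log2 fold change −0.08, SE 0.09), and MDM2, a ubiquitin ligase of the family, had a log2 fold change of −0.18 (SE 0.12).

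Among 18 regulators and cofactors of the p53 family, such as ligases and adaptors, 0 passed in either direction by edgeR. Over all genes 5.24% were called lower and 5.19% higher. At an unadjusted p under 0.05, 3 were lower and 1 higher, again with no share of all genes given at that threshold. DESeq2 called 1 lower and limma voom 0. The median log2 fold change was −0.05. Without SAM 2, 3 were called lower and 1 higher by edgeR, with a median of −0.09, and without SAM 3, 1 lower and 2 higher, with a median of 0.0034.

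PERP was read beside the other desmosome and plaque genes, the adhesion structure it belongs to. Of 15 listed genes 11 were tested, of which 2 fell, 1 rose and 8 did not pass, beside 10.4% called over all genes, with a median log2 fold change of −0.15. PKP1, a plaque protein of stratified epithelia, rose from 56.3, 54.0 and 55.0 CPM to 90.0, 91.8 and 81.4 CPM (log2 fold change 0.67, SE 0.09; adjusted p = 0.0045 by edgeR), and kept its call without any 1 library. Periplakin (PPL), which links desmosomes to keratin filaments, fell by 0.82 (SE 0.16; adjusted p = 0.0144) and the desmosomal cadherin DSC3 by 0.61 (SE 0.14; adjusted p = 0.0285) on the log2 scale. Both falls were lost without any 1 control or SAM 1.

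PERP also belongs to the PMP22 family of tetraspan proteins. Of its 4 tested relatives, PMP22 itself rose from 28.9, 32.4 and 29.7 CPM to 43.0, 41.1 and 42.7 CPM (log2 fold change 0.48, SE 0.09; adjusted p = 0.0128 by edgeR). EMP3 rose by 0.50 (adjusted p = 0.0419) and EMP1 fell by 0.38 (adjusted p = 0.0322) on the log2 scale, and EMP2 did not pass at −0.16. All 3 calls, beside 10.4% called over all genes, were lost without any 1 control or SAM 1.

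SFN was read beside the 6 other 14-3-3 genes, adaptor proteins that bind phosphorylated partners. YWHAH rose from 96.6, 97.7 and 97.7 CPM to 130, 120 and 142 CPM (log2 fold change 0.42, SE 0.10; adjusted p = 0.0264 by edgeR), a call lost without any 1 control or SAM 1 (adjusted p up to 0.140). The other 5 did not pass, with log2 fold changes from −0.13 for YWHAZ to 0.15 for YWHAE. Over all genes 10.4% were called. SFN made up 3.34%, 3.52% and 3.53% of all 14-3-3 counts in the controls and 4.88%, 4.56% and 5.57% with SAM. Per kb of exon, SFN stood at 116 ± 2.71 CPM in the controls, between YWHAB at 85.4 and YWHAQ at 183, and at 172 ± 20.7 CPM with SAM.

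Of 10 genes that promote or restrain entry into mitosis, the step 14-3-3 sigma restrains, 2 rose and 8 did not pass. A positive log2 fold change was seen in 9 of the 10, with a median of 0.27. As the list holds both kinds of gene, that count gives no direction for the step. Over all 15312 genes 5.19% were called higher and 7517 were positive. The phosphatase CDC25A, which removes inhibitory phosphates from cyclin-dependent kinases, rose from 37.1, 36.5 and 36.8 CPM to 60.8, 55.2 and 48.99 CPM (log2 fold change 0.58, SE 0.10; adjusted p = 0.0097 by edgeR). The mitotic kinase PLK1 rose by 0.37 (SE 0.10; adjusted p = 0.0479) on the log2 scale. Both calls were lost without any 1 control or SAM 1, and without SAM 2 or SAM 3 there were 5 and 3 rises.

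Markers of other cell types were read in the same libraries, where 5.24% of all genes tested were called lower and 5.19% higher. Luminal prostate markers summed to 2752 to 2867 CPM in the controls and 2311 to 3069 with SAM, with 2 of 10 tested lower, the pioneer factor FOXA1 by 0.49 and the protease TMPRSS2 by 0.63 on the log2 scale (adjusted p = 0.0201 and 0.0493 by edgeR). Mesenchymal and stromal markers summed to 396 to 456 CPM in the controls and 345 to 553 with SAM, with 1 of 7 tested higher, the intermediate filament gene VIM at 9.23 to 10.7 against 13.9 to 14.95 CPM (log2 fold change 0.52; adjusted p = 0.0252 by edgeR). Leukocyte and endothelial markers summed to 1.39 to 1.81 CPM in the controls and 1.93 to 2.45 with SAM, with CD68, a lysosomal protein, the 1 gene tested and called higher. The calls of FOXA1, VIM, TMPRSS2 and CD68 were all lost without any 1 control or SAM 1, those of TMPRSS2 and CD68 also without SAM 2, and that of CD68 also without SAM 3. Any part of these shifts in the TP63 and SFN values was not tested.

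The genes whose log2 levels followed TP63 most closely over the 6 libraries, among 11642 compared, were TNS3, SLC24A1, ARHGEF28, KIF21B and ZMYND8, with Pearson r of 0.997 to 0.999. Those nearest to SFN were YWHAH, LAD1, PRR13, MOGS and POP7, also at 0.997 to 0.999, of which LAD1 encodes ladinin, a basement membrane protein of epithelia. YWHAH is thus both a relative of SFN and the closest to it in pattern. For TP73 the nearest gene was TTC31 (r = 0.998) and for PERP it was MMP24 (r = 0.996), neither of which passed the test between groups. The 6 libraries share the treatment contrast, and r is given as a description.

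**Figure D5:**
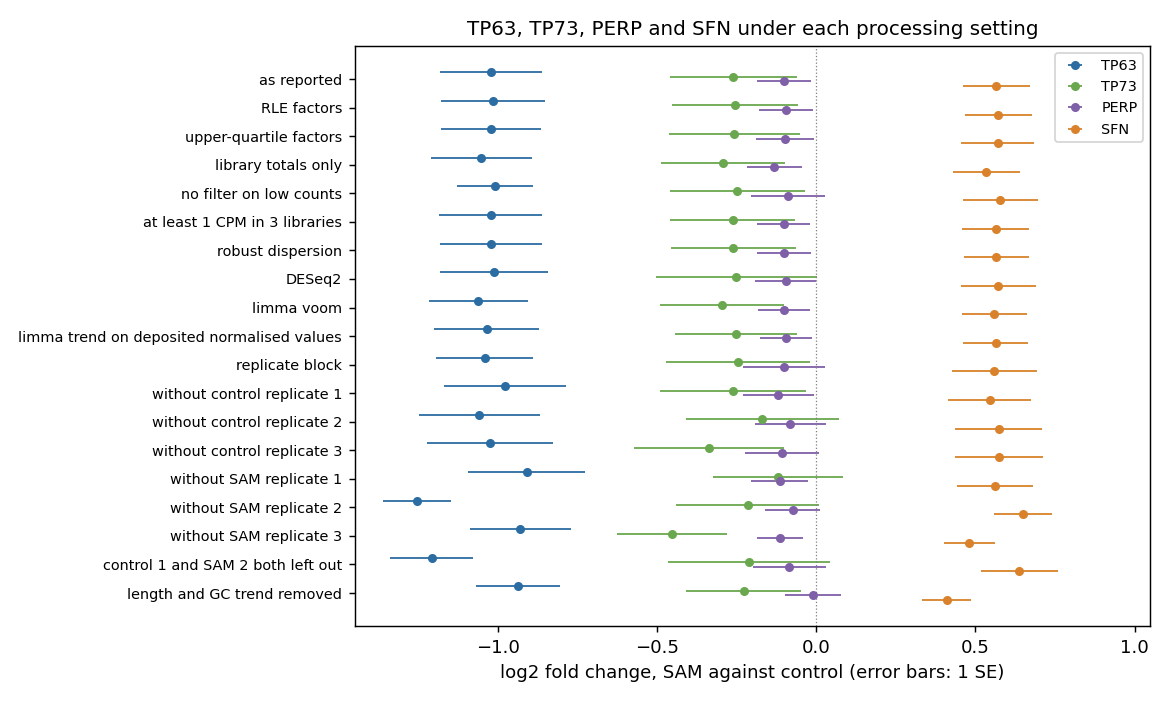
Log2 fold change of SAM against control (horizontal axis; error bars 1 SE) for TP63, TP73, PERP and SFN as reported and under each alternative processing setting (vertical axis). TP63 stays between −1.26 and −0.91 and SFN between 0.41 and 0.65, and the TP73 and PERP values stay below 0.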

How the data were processed

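Total RNA of 3 control and 3 SAM-treated PC-3 libraries was extracted with a Peq-Gold kit, made into libraries with a TruSeq kit and sequenced on a HiSeq2000 per the labels. Dose, RNA isolation kit and sequencer differ from those in the methods of the study, and the labels were followed. Per the submitters' processing notes the tools were STAR 2.4 and HTSeq 0.6.1, with DESeq2 1.8, SAMtools 0.1.19, CASAVA 1.8.2 and FastQC 0.10.0. The notes list hg19 and mm10 as builds and give no role to either. The authors deposited whole-number counts per gene and a second table of normalised signal, the counts divided by size factors. Gene coordinates in the table lie within 92 bases of GENCODE v44 for TP63, TP73, PERP and SFN. Whether counting used strand is not stated in those sources.

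Counts of 15312 genes (after edgeR's filter on low counts; 99.85% of all counts) were scaled by TMM factors and tested by the quasi-likelihood F test of edgeR 4.0.16 with Benjamini-Hochberg adjustment, in R 4.3.3, on the 6 libraries with treatment as the 1 factor. The steps were tested on simulated data. The common biological coefficient of variation was 13.5%. Alternatives used DESeq2 1.42.0 and limma 3.58.1. The limma runs used voom on the TMM-scaled counts and, separately, log2 of the deposited normalised values with a pseudocount of 1. The setting that removes GC and length trends, over 14882 genes, was added after the data were seen. No 2 libraries agreed within sampling noise.

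TP63, TP73, PERP, SFN and the 10 gene lists were chosen with earlier results of these data known. Genes named in the text are those 4, up to 4 called genes per list by smallest p, fixed reference genes (KRT5, KRT14, KRT8, KRT18, CDKN1A, MDM2, the 14-3-3 genes and the PERP relatives), overlapping genes, and the 5 genes nearest in pattern, and any other was chosen after its values were seen. Some genes under this rule are not reported here. MSMB and PECAM1 are not analysed here, and TIGAR was read under its older symbol C12orf5.

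Same-numbered control and SAM libraries had residual correlations of −0.151, −0.363 and 0.119, so the numbers were not taken to pair the libraries. The highest correlations were 0.41 for control 1 with SAM 2, the libraries that stood apart, and 0.269 for control 2 with SAM 3. A batch that crosses the groups is not given in the labels and was not tested.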

Additional observations from a re-analysis of the deposited data

How the results depend on the processing

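TP63, TP73, PERP and SFN kept the sign of their change under every alternative run. The TP63 value ranged from −1.26 to −0.91 and the TP73 value from −0.45 to −0.12 on the log2 scale. Removing the GC and length trends moved SFN to 0.41 and PERP to −0.0099. The 795 higher and 803 lower genes became 1402 and 1341 with no filter on low counts, 1609 and 1272 with the GC and length trends removed, 446 and 508 without control 1 and SAM 2 together, and 126 and 127 at an adjusted p under 0.01. Leaving out 1 library gave 61 to 1661 higher and 78 to 1572 lower. The 2 p63-linked rises became 1 with library totals only, robust dispersion, limma voom or limma on the normalised values, and 0 without control 1 and SAM 2, where the 4 falls became 2. Leaving out 1 library gave 0 to 4 rises and 0 to 7 falls. Of the p53 response genes, 1 rose with no filter and 2 with the trends removed, where 5 fell, and 1 fell without control 1 and SAM 2. Leaving out 1 library gave 0 to 2 rises and 1 to 3 falls. The cause was not tested.

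The replicate numbers were not taken to pair the libraries. A replicate block gave 440 higher and 588 lower genes, 0 p63-linked rises and 3 falls, and TP63 at −1.04 and SFN at 0.56 on the log2 scale. Leaving TP63, TP73, PERP and SFN aside, 29 genes under the naming rule were called. Of these, 10 were not called under the block and 25 to 27 without any 1 control or SAM 1 (25 without control 2). Without SAM 3 or SAM 2, 1 or 2 were not called. TP73 has the least depth, with 40 to 107 counts per library.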
